A study of Mus musculus with 7 samples.

Results

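The genes described here are 9 that mark or specify macrophages: the surface and lysosomal markers Csf1r, Adgre1 and Cd68, the lysozymes Lyz1 and Lyz2, the transcription factors Spi1, Cebpa and Maf, and Csf2rb, a cytokine receptor subunit. They were taken by symbol through their Ensembl identifiers, and all 9 were among the 24084 genes listed in at least 1 library and the 16226 that passed the filter on low counts. The RNA came from tumor-associated macrophages, collected by flow cytometry as F4/80+ cells from established Lewis lung carcinomas, subcutaneous tumors of a mouse lung cancer line. The 3 Dicer1-deleted libraries came from mice labelled LysM-Cre;Dicer-/-, in which Cre recombinase, driven by the lysozyme M locus, removes a floxed Dicer1 in myeloid cells. The 4 control libraries came from LysM-Cre;Dicer+/+ mice, so that both groups carried the Cre, which the labels state was homozygous. The labels give no age, sex or treatment beyond the tumor, nor do they tie libraries to separate animals, so the spread behind each p-value is that between libraries and may be technical. The comparison asked what the loss of Dicer1, the ribonuclease that cuts microRNA precursors to mature microRNAs, does to the state of these macrophages.

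Macrophages depend on colony-stimulating factor 1, which acts through the receptor tyrosine kinase encoded by Csf1r. The ETS factor PU.1, encoded by Spi1, and C/EBPα, encoded by Cebpa, build the myeloid transcription programme, and c-MAF, encoded by Maf, acts in mature and tissue-resident macrophages. F4/80 is the protein of Adgre1, an adhesion receptor, and CD68 is a glycoprotein of late endosomes and lysosomes. Lysozymes cut the peptidoglycan of bacterial walls. The mouse has a pair of neighbouring lysozyme genes: Lyz2 encodes lysozyme M, the form of macrophages and neutrophils, and Lyz1 encodes lysozyme P, best known from Paneth cells of the small intestine.

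Depth was 43.0 to 51.2 M uniquely placed reads per library, with both mates of a pair counted, and the fewest reads on any of the 9 genes in any library were 392, for Cebpa in control replicate 3. Levels are given as CPM (reads of a gene scaled to a common library size) after TMM scaling, in replicate order. Dicer1 itself was at 7.85, 6.86 and 7.85 CPM in the deleted libraries and 15.7, 15.8, 18.6 and 17.1 CPM in the controls, without overlap, and so in the direction the labels give. Its log2 fold change was -1.16 ± 0.23 (SE), with an adjusted p of 0.150 in edgeR's quasi-likelihood test and 0.000133 in DESeq2. The macrophage markers Csf1r, Adgre1, Cd68, Mertk and Fcgr1 summed to 4649 to 7360.1 CPM in the deleted and 4600 to 6660 CPM in the control libraries.

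The results turn on the lysozymes, whose genes lie side by side and resemble each other, so their sequences bear on how far the reads tell them apart. In GENCODE mouse release M21 (GRCm38), Lyz2 lies on the minus strand of chromosome 10 from 117277331 to 117282321 and Lyz1 on the same strand from 117287797 to 117292868, with 5475 bases between them. Neither overlaps another annotated gene on the opposite strand. The coding part of exon 1, from the start codon, is at chr10:117292703-117292838 for Lyz1 and chr10:117282107-117282242 for Lyz2. It is shown here 5′ to 3′ on the coding strand, with the 14 of 136 bases that differ in capitals:
Lyz1: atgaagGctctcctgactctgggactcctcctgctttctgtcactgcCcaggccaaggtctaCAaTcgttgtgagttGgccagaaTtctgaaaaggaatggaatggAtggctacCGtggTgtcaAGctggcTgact
Lyz2: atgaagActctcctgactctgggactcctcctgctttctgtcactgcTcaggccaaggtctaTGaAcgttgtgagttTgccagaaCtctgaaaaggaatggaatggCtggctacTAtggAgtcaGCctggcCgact
The 136 bases were 89.7% the same, and the whole coding sequences of 444 bases were 95.0% the same. Read mates were 50 nt long, and 16.1% of the 50-base windows of the Lyz1 transcript and 15.4% of those of Lyz2 occur in the other transcript. Of the reads the authors assigned to these genes, 3.58% to 3.83% for Lyz1 and 3.56% to 3.87% for Lyz2 were shares of multiply placed reads, with little difference between libraries. The unique counts used below leave those shares out.

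The stretch before the start site is shown because both genes were lower in the deleted libraries. RefSeq (GRCm38.p6) gave a start for both, and the 200 bases that end 51 bases before it are at chr10:117292919-117293118 for Lyz1 and chr10:117282323-117282522 for Lyz2, on the minus strand. Capitals mark the match to AGGAAGT, an ETS core of the kind PU.1 binds, here read on the opposite strand as ACTTCCT:
Lyz1: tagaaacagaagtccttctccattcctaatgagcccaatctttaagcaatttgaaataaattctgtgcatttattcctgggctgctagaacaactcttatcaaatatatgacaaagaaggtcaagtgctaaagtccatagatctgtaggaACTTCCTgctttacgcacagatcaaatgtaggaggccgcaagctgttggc
Lyz2: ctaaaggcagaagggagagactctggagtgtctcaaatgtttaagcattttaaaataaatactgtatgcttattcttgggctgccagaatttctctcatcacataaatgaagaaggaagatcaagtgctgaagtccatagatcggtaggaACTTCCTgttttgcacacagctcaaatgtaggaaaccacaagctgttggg
After alignment, 150 of 198 bases were the same, 75.8%. Each holds the match at the same place, beginning 100 bases before the RefSeq start. Of 32851 mouse promoters searched over the same 250 bases on both strands, 7.7% hold this motif. A looser C/EBP-type pattern, TTNNGNAA, occurred in both within those 250 bases and in 36.8% of all promoters. The MAF-type pattern TGCTGAC, in 3.8% of promoters, was not in either window. For Lyz2, the GENCODE start at 117282321 lies upstream of the RefSeq start. The last bases of its 250-base window thus fall inside the GENCODE transcript. Only 4 of the 9 genes have a promoter sequence in the table used, and a match describes letters and not binding. The letters of Cd68 and Cebpa, the others with a sequence, held no AGGAAGT and no TGCTGAC in this window. Of TTNNGNAA, Cd68 held 3 matches and Cebpa 0, against 1 each in Lyz1 and Lyz2.

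Lyz1 and Lyz2 were lower in every deleted library than in every control library. Lyz1 was at 689.9, 161 and 889 CPM in the deleted libraries and at 3304, 7870.5, 2011 and 2377 CPM in the controls. The groups did not overlap: the lowest control, replicate 3, was above the highest deleted library, also replicate 3. The mean went from 3891 ± 2708 (SD, n = 4) to 579.9 ± 376 CPM (SD, n = 3), a level 6.71-fold higher in the controls. The spread was wide in both groups, with control replicate 2 high and deleted replicate 2 low; without control replicate 2 the log2 fold change was -2.14 ± 0.59 (SE). Its log2 fold change was -2.75 ± 0.69 (SE; 95% interval -4.31 to -1.19), with an adjusted p of 0.238 in edgeR and 0.00101 in DESeq2.

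Lyz2 was at 53.0, 67.2 and 50.7 CPM in the deleted libraries and at 134, 212, 107 and 103 CPM in the controls. Again the groups did not overlap, the deleted libraries lay close together, and control replicate 2 was once more the highest. The mean was 139 ± 50.6 CPM in the controls and 57.0 ± 8.97 CPM in the deleted libraries (SD, n = 4 and 3), 2.44-fold higher in the controls. The log2 fold change was -1.29 ± 0.32 (SE; 95% interval -2.01 to -0.56), with an adjusted p of 0.235 in edgeR and 0.0175 in DESeq2. The DESeq2 call for Lyz1 held with any 1 library left out, with adjusted p from 0.000333 to 0.0118. That for Lyz2 was lost without deleted replicate 1 (adjusted p = 0.143), deleted replicate 3 (0.127), control replicate 1 (0.0910) or control replicate 2 (0.0662).

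These calls stand against a low background in edgeR and a higher one in DESeq2. At an adjusted p under 0.05, edgeR called 4 of 16226 genes (0.0247%) and none of the 9, while 1300 genes (8.01%) and 2 of the 9, Lyz1 and Lyz2, had an unadjusted p under 0.05. DESeq2 called 256 of 18155 genes lower (1.41%), among them 2 of the 9, and 141 higher (0.777%), among them 0 of the 9. All deleted libraries lay below all controls for 883 genes (5.44%), Lyz1 and Lyz2 among them, and above all controls for 627 genes (3.86%), with 0 of the 9. The median log2 fold change was 0.08 over the 9 genes and 0.03 over all tested genes, with 5 of the 9 positive and 4 negative.

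**Figure D1:**
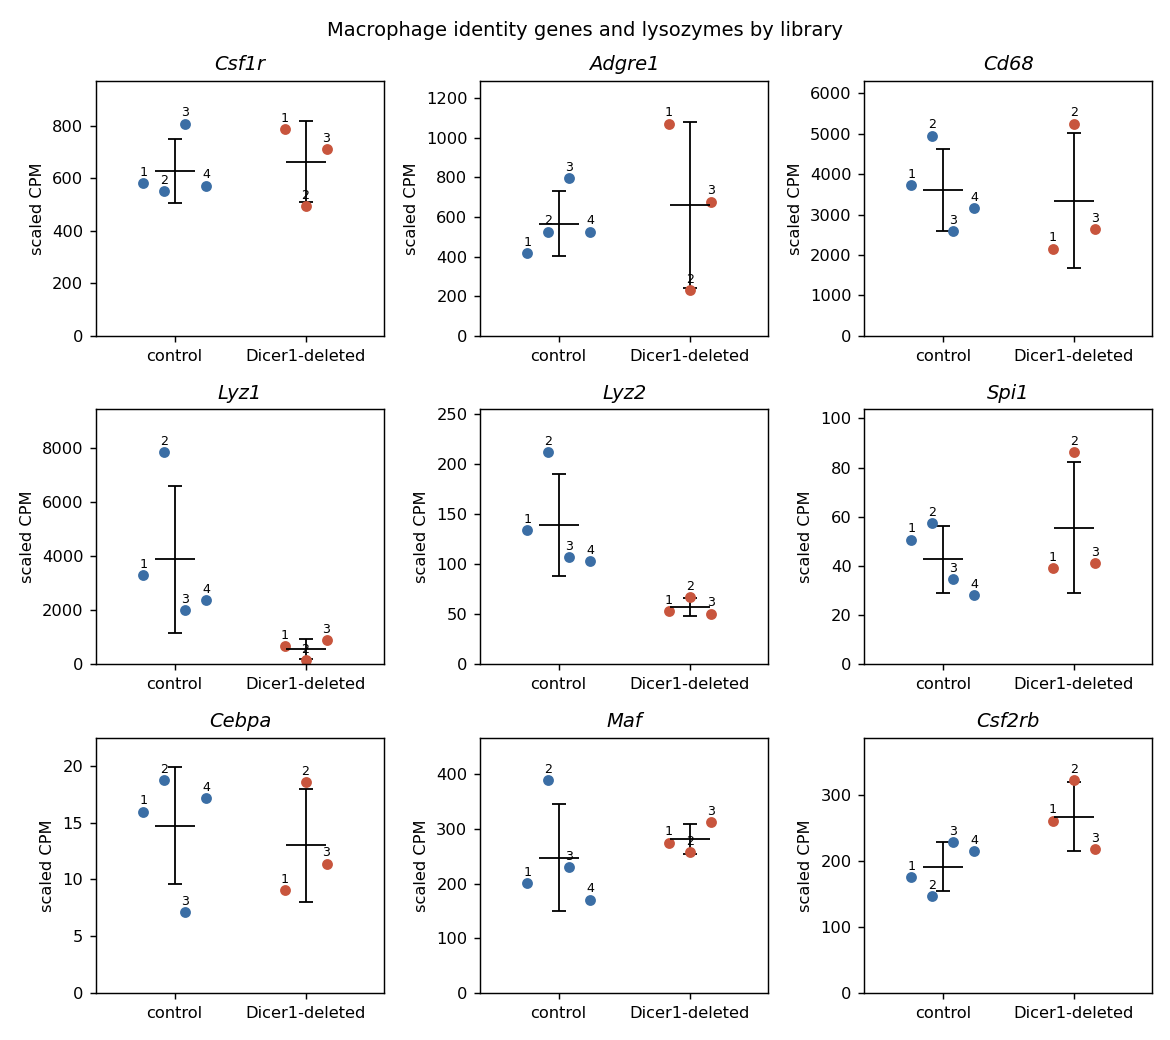
TMM-scaled CPM of the 9 genes in each library, with 1 panel per gene and a linear axis from 0. Points are libraries numbered by replicate (4 control, blue; 3 Dicer1-deleted, red), and the bar is the mean with its SD; the groups are apart for Lyz1 and Lyz2 and overlap in the other 7 panels.

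Lyz1 was by far the more abundant of the lysozyme transcripts in these libraries, all from mice whose Lyz2 locus carried the Cre. Per length, in the RPKM values the authors deposited, Lyz1 was at 2981 ± 1929 in the controls and 458 ± 316 in the deleted libraries, and Lyz2 at 104 ± 32.8 and 40.9 ± 1.73 (SD, n = 4 and 3). For each unique Lyz2 read there were 24.7, 37.1, 18.8 and 23.1 Lyz1 reads in the controls and 13.0, 2.40 and 17.5 in the deleted libraries. Lyz1 was thus above Lyz2 in all 7 libraries. Its share of the reads of both genes was 96.1%, 97.4%, 94.95% and 95.9% in the controls and 92.9%, 70.6% and 94.6% in the deleted libraries. The share was lower by 10.05 percentage points on average, with an exact two-sided permutation p of 0.0286 over the 35 ways to choose 3 of 7 libraries, the smallest this design allows. That size rests on deleted replicate 2: without it the difference was 2.34 points, and the test could not go below an exact p of 0.0667.

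Lyz1 and Lyz2 summed to 743, 229 and 939 CPM in the deleted libraries and to 3438, 8082, 2118 and 2479.6 CPM in the controls. Their mean log2 values differed by -2.68. Since both genes were lower in every deleted library and Lyz1 makes up most of the sum, the sum had to separate the groups and is given with no test.

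**Figure D2:**
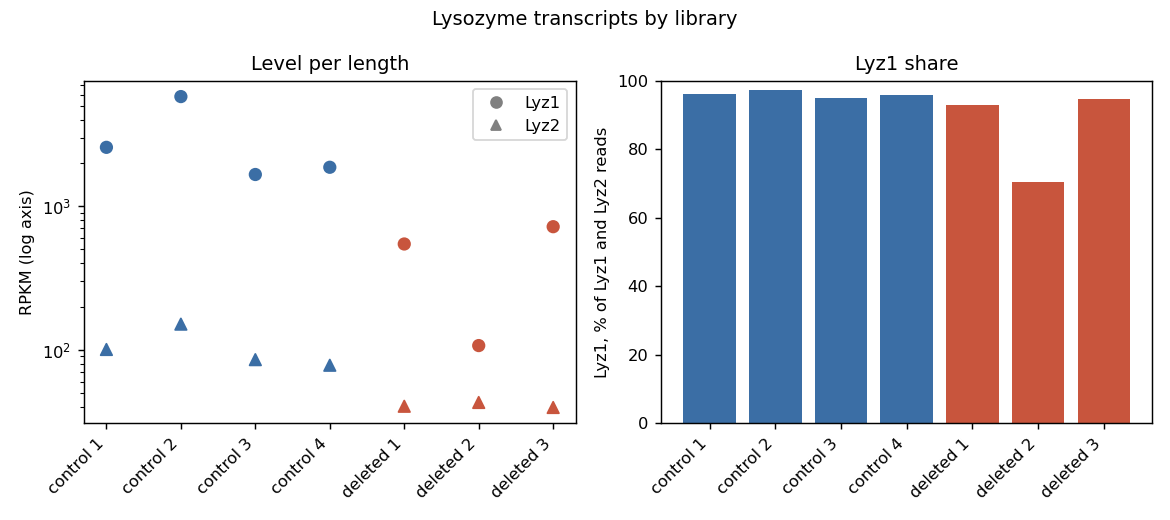
Left, RPKM of Lyz1 (circles) and Lyz2 (triangles) in each library on a log axis; right, Lyz1 as a percent of the unique reads of both genes, with bars from 0 (control blue, Dicer1-deleted red). Lyz1 lies above Lyz2 in all 7 libraries, and the share is lowest, 70.6%, in deleted replicate 2.

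The Lyz2 locus has a place in the design, since the LysM-Cre allele carries the Cre at the Lyz2 start codon and was homozygous in both groups. By the design, then, neither group had an intact Lyz2. The deposited values are 1 count per gene, so reads from before and after the insertion cannot be told apart. The Lyz2 level given here is that of transcripts of the altered locus. The Lyz1 share, the Lyz1 reads per Lyz2 read and the RPKM order thus compare Lyz1 with an altered Lyz2. They do not show how the genes rank in mice without the Cre. Nearby genes that were tested did not pass. Yeats4, a chromatin reader beside the lysozymes, had a log2 fold change of 0.11 ± 0.33 (SE). Cpsf6, a pre-mRNA cleavage factor, had one of 0.27 ± 0.37 (SE). The adjusted p was 0.996 for both in edgeR. Another neighbour, 9530003J23Rik, was at 0 in every library but control replicate 4, at 0.456 CPM, and was not tested. Of the other lysozyme family genes, 1 passed the filter, Lyzl4, at 1.46 to 3.52 CPM in the controls and 2.45 to 5.08 CPM in the deleted libraries (log2 fold change 0.31 ± 0.42). Of the family list of 10, then, 3 were tested, 2 were lower in DESeq2 and 0 in edgeR. Those 2 were Lyz1 and Lyz2 themselves. The median log2 fold change of the 3, -1.29, is the Lyz2 value again and describes no change of the wider family.

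Csf1r, Adgre1 and Cd68 did not pass in either tool, and each had libraries of both groups in the same range. Csf1r, on chromosome 18 from 61100598 to 61132149, was at 789, 494 and 710.4 CPM in the deleted libraries and 581, 553, 809 and 572 CPM in the controls. The lowest and the second highest library were both deleted ones, and control replicate 3 was the highest. The log2 fold change was 0.08 ± 0.29 (SE; 95% interval -0.56 to 0.72; adjusted p = 0.996 in edgeR and 0.997 in DESeq2), so changes within that interval could not be resolved. Csf1r overlaps Hmgxb3 on the opposite strand, and the library kit keeps no strand, so reads of the overlap are not separated.

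Adgre1, on chromosome 17 from 57358691 to 57483527, encodes the antigen by which the cells were sorted. It was at 1072, 233 and 678 CPM in the deleted libraries and 418, 527, 798 and 527 CPM in the controls. Deleted replicate 1 was the highest and deleted replicate 2 the lowest of all 7, so the deleted group spanned the controls. For Adgre1 the log2 fold change was 0.22 ± 0.47 (SE; 95% interval -0.83 to 1.27; adjusted p = 0.996 in edgeR). Without deleted replicate 1 it was -0.32 and without deleted replicate 2 it was 0.62, and neither passed.

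Cd68, on chromosome 11 from 69664213 to 69666153, was at 2156, 5248 and 2631 CPM in the deleted libraries and 3721, 4951, 2591 and 3166 CPM in the controls. Here deleted replicate 2 was the highest and deleted replicate 1 the lowest, the reverse of Adgre1. For Cd68 the log2 fold change was -0.11 ± 0.39 (SE; 95% interval -0.98 to 0.76; adjusted p = 0.996 in edgeR). Without deleted replicate 2 it was -0.60 and without deleted replicate 1 it was 0.13, and neither passed.

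Other macrophage genes held no call. Of 16 pan-macrophage genes, all were tested and 0 passed in either direction in edgeR or DESeq2, with 13 positive and 3 negative log2 fold changes and a median of 0.15, against 0.03 for all genes. The most abundant was Ctss, the lysosomal protease cathepsin S, at 5521, 8248 and 5289 CPM in the deleted libraries and 8048, 9494, 4515 and 8911 CPM in the controls. Its log2 fold change was -0.29 ± 0.35 (SE). The list ran from -0.50 ± 0.27 for Cd14 to 1.26 ± 0.56 for Aif1. All deleted libraries lay below all controls for 1 of the 16 genes, Cd14, and above them for 1, Sirpa. Over all tested genes the shares were 5.44% and 3.86%. EdgeR recovered 1 of 50 genes at 2-fold in the simulation described under processing. The lack of a call therefore does not show that these genes were unchanged. Of the LAMP family, lysosomal membrane proteins to which Cd68 belongs, 4 of 5 were tested, 0 passed, and the median was -0.09. Of group E of the adhesion receptors, all 3 were tested and 0 passed. Beside Adgre1 these were Adgre5, the CD97 receptor, at 0.54 ± 0.27, and Adgre4 at 1.69 ± 0.72 on the log2 scale, whose groups overlapped, with up to 49.1 CPM in the deleted and up to 20.2 CPM in the control libraries.

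**Figure D3:**
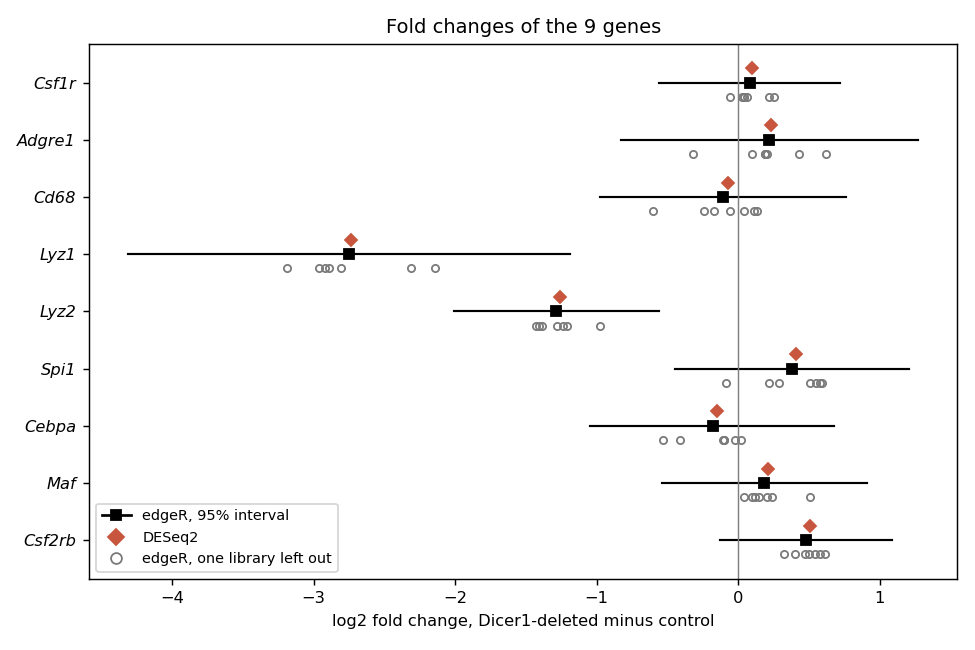
Log2 fold change of each of the 9 genes, Dicer1-deleted minus control. Black squares and lines are the edgeR value and its 95% interval, red diamonds the DESeq2 value, and open circles the 7 edgeR values with 1 library left out; all values for Lyz1 and Lyz2 lie below 0, while those for Csf1r, Adgre1, Cd68, Spi1 and Cebpa fall on both sides.

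Among the transcription factors, Spi1, Cebpa and Maf did not pass. Spi1, on chromosome 2 from 91082390 to 91115756, was at 39.2, 86.3 and 41.2 CPM in the deleted libraries and 50.7, 57.5, 34.5 and 28.3 CPM in the controls. Deleted replicate 2 was the highest, and the other deleted libraries lay within the control range. Its log2 fold change was 0.38 ± 0.37 (SE; adjusted p = 0.994 in edgeR), and without deleted replicate 2 it was -0.09.

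Cebpa, on chromosome 7 from 35119293 to 35121928, was the least abundant of the 9, at 9.05, 18.5 and 11.4 CPM in the deleted libraries and 16.0, 18.7, 7.15 and 17.1 CPM in the controls. Control replicate 3 was the lowest, and the ranges overlapped almost wholly. A log2 fold change of -0.18 ± 0.39 was fitted (SE; adjusted p = 0.996 in edgeR). Maf, on chromosome 8 from 115682942 to 115707794, was at 275, 257 and 312 CPM in the deleted libraries and 201, 388, 230.1 and 170.4 CPM in the controls. All 3 deleted libraries lay between control replicates 2 and 3. For Maf the log2 fold change was 0.18 ± 0.32 (SE; adjusted p = 0.996 in edgeR). Both genes overlap an annotated gene on the opposite strand, Gm45091 for Cebpa and Gm15655 for Maf, whose reads are not separated.

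Relatives of these factors included a few that passed in DESeq2 and none in edgeR. Of 11 ETS factors, 9 were tested and 1 was higher in DESeq2: Spic, which encodes SPI-C, a PU.1 relative known from red pulp macrophages of the spleen. Spic was at 209, 223 and 99.6 CPM in the deleted libraries and 17.5, 30.1, 9.04 and 83.2 CPM in the controls. The groups did not overlap, though control replicate 4 came close to deleted replicate 3. The log2 fold change was 2.34 ± 0.67 (SE), with an adjusted p of 0.0197 in DESeq2 and 0.303 in edgeR. The DESeq2 call was lost without deleted replicate 1 (0.109), deleted replicate 2 (0.375), control replicate 1 (0.101) or control replicate 2 (0.0633). Without control replicate 4, the highest control, the log2 fold change of Spic was 3.26 in DESeq2 (adjusted p = 2.69e-07) and 3.23 in edgeR (0.162). The most abundant ETS factor was Ets2, with a log2 fold change of 0.44 ± 0.28, and the median of the list was 0.38.

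Of 10 other myeloid transcription factors, 9 were tested and 2 were higher in DESeq2, Irf8 and Pparg. Irf8, an interferon regulatory factor of monocyte and dendritic cell development, was at 55.5, 109 and 80.3 CPM in the deleted libraries and 30.7, 42.3, 24.8 and 37.2 CPM in the controls. Pparg, the lipid-sensing nuclear receptor PPARγ of alveolar macrophages and fat cells, was at 16.9, 16.2 and 11.6 CPM in the deleted libraries and 6.46, 5.34, 4.63 and 9.07 CPM in the controls. Neither gene's groups overlapped. Log2 fold changes were 1.27 ± 0.30 for Irf8 (adjusted p = 0.0131 in DESeq2 and 0.207 in edgeR) and 1.23 ± 0.31 for Pparg (0.0220 and 0.233). The DESeq2 call for Irf8 was lost without deleted replicate 2 (adjusted p = 0.0777), deleted replicate 3 (0.0669), control replicate 1 (0.0979) or control replicate 3 (0.0764). For Pparg it was lost without deleted replicate 1 (0.200), deleted replicate 2 (0.0924), or control replicates 1 (0.119), 2 (0.118) or 3 (0.113). The list's most abundant gene, Id2, an inhibitor of helix-loop-helix factors, had a log2 fold change of 0.24 ± 0.35, and the list's median was 0.00.

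Of the C/EBP factors, all 6 were tested, 0 passed in either tool, and the median log2 fold change was 0.01; the most abundant, Cebpg, stood at -0.24 ± 0.32. Of 9 MAF and BACH factors, 7 were tested and 0 passed in either tool, with a median of 0.26 and all 7 positive. Maf was the most abundant of them.

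**Figure D4:**
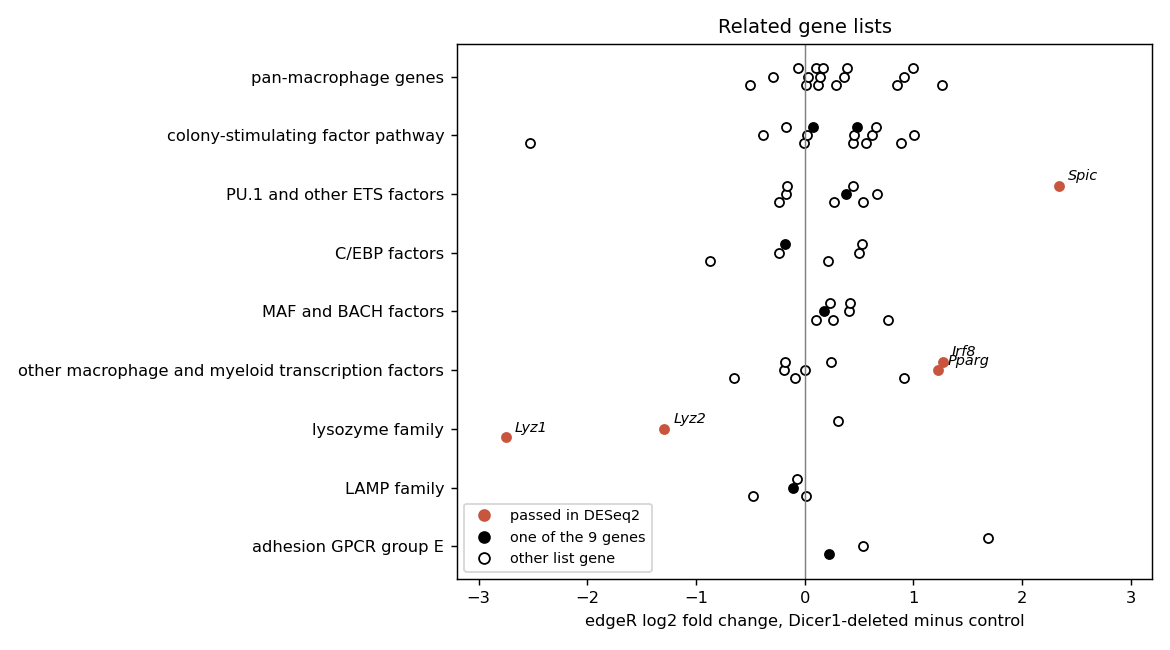
EdgeR log2 fold changes, Dicer1-deleted minus control, of the tested genes of 9 lists related to the 9 genes, with 1 point per gene and a small vertical offset for legibility. Red points passed in DESeq2 and are named (Lyz1, Lyz2, Spic, Irf8 and Pparg), black points are other genes of the 9, and open points are other list genes; no point passed in edgeR.

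Csf2rb encodes the common beta chain through which the receptors for GM-CSF, interleukin 3 and interleukin 5 signal. It was at 261, 322 and 218 CPM in the deleted libraries and 176, 146, 229 and 215 CPM in the controls. Deleted replicates 1 and 2 were above all controls, while deleted replicate 3 lay below control replicate 3. The log2 fold change was 0.48 ± 0.27 (SE; 95% interval -0.13 to 1.09; adjusted p = 0.794 in edgeR and 0.633 in DESeq2).

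Csf2rb, on chromosome 15 from 78325752 to 78353847, has a near copy 20030 bases away, Csf2rb2, which in the mouse encodes a beta chain specific to interleukin 3. Their coding sequences were 95.2% the same over 2628 aligned bases, and 18.4% of the 50-base windows of the Csf2rb transcript occur in that of Csf2rb2. Csf2rb2 was at 82.0, 97.0 and 68.3 CPM in the deleted libraries and 51.9, 47.4, 66.8 and 74.6 CPM in the controls, a log2 fold change of 0.45 ± 0.26 (adjusted p = 0.807 in edgeR). Csf2rb took between 74.2% and 77.4% of the reads of the pair in the 7 libraries. The sum of both differed by 0.48 on the log2 scale (exact two-sided permutation p = 0.171).

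The rest of the colony-stimulating factor pathway also held no call. Of its 17 genes, 14 were tested and 0 passed in edgeR or DESeq2, with 10 positive and 4 negative log2 fold changes and a median of 0.45, against 0.03 for all genes. Of the ligands, Csf1 was at 1.96 to 6.96 CPM in the deleted and 0.853 to 3.74 CPM in the control libraries. Il34, the other ligand of the CSF1 receptor, was at 0.955, 0 and 0 CPM in the deleted and 1.47, 0.314, 4.59 and 1.09 CPM in the control libraries, overlapping (adjusted p = 0.803 in edgeR). Csf2, the gene of GM-CSF, was at 0 in 2 of 3 deleted and 3 of 4 control libraries and was not tested. Csf2ra, the GM-CSF receptor's own alpha chain, had a log2 fold change of 0.56 ± 0.30. Csf1r was the most abundant gene of the pathway.

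Set in order by RPKM, which divides by length, the controls had Lyz1 at 2981, Cd68 at 2814, Adgre1 at 174, Csf1r at 119.7, Lyz2 at 104, Csf2rb at 37.6, Maf at 29.5, Spi1 at 15.6 and Cebpa at 5.48. The first place of Lyz1 rests on control replicate 2, since Cd68 was the higher in the other 3 controls. The ranges of Adgre1 and Csf1r, Csf1r and Lyz2, and Csf2rb and Maf overlapped, while Cd68 stood clear of Adgre1 and Lyz2 of Csf2rb. The deleted libraries had Cd68 at 2452, Lyz1 at 458, Adgre1 at 201, Csf1r at 123, Csf2rb at 49.6, Lyz2 at 40.9, Maf at 32.8, Spi1 at 19.0 and Cebpa at 4.59. Cd68 was above Lyz1 in all 3 and the ranges were apart, whereas Lyz1, Adgre1 and Csf1r overlapped in range. Csf2rb was below Lyz2 in all 4 controls and above it in all 3 deleted libraries.

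The spread within each group was not the same for all 9 genes. Deleted replicate 2 deviated from the mean of the 7 libraries by -1.24 for Adgre1, -3.14 for Lyz1, 0.66 for Cd68 and 0.91 for Spi1 on the log2 scale. Deleted replicate 1 deviated by 0.96 for Adgre1 and -0.62 for Cd68. Across 13027 genes, the log2 deviation of a library correlated with transcript length, with Spearman rho of -0.342 in deleted replicate 2, -0.323 in control replicate 1 and -0.367 in control replicate 2, and of 0.288 to 0.355 in the other 4 libraries. This correlation is across genes, which are not independent. Those 3 libraries were the highest for Cd68 and for Spi1 and the lowest for Adgre1, although control replicates 2 and 4 both rounded to 527 CPM for Adgre1. With each library's length trend taken out as an offset, the log2 fold change was -2.55 ± 0.70 for Lyz1 (adjusted p = 0.219 in edgeR), -1.23 ± 0.23 for Lyz2 (0.0990), 0.07 ± 0.20 for Csf1r and -0.12 ± 0.27 for Cd68 (SE). With the same offset it was 0.48 ± 0.40 for Spi1 and 0.21 ± 0.41 for Adgre1, and neither passed.

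**Figure D5:**
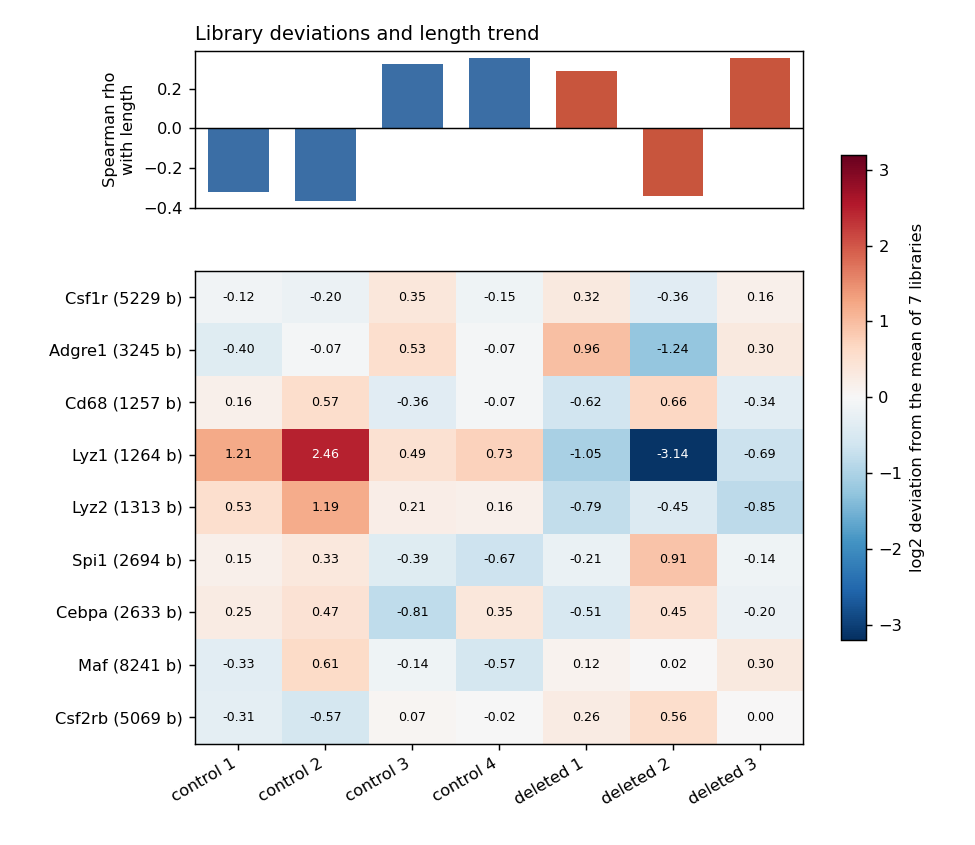
Top, Spearman rho across 13027 genes between transcript length and a library's log2 deviation from the mean of all 7 (control blue, Dicer1-deleted red); bottom, that deviation for each of the 9 genes, with the length implied by the RPKM in bases. Lyz1 and Lyz2 are negative in all 3 deleted and positive in all 4 control libraries, whereas Cd68 and Spi1 are positive in the 3 libraries with a negative rho and negative in the other 4.

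The titles carry the prefix CSF1R, whose meaning is not given. They also carry a code, L4 or L5, whose meaning is not given either, and both codes hold both groups. Within L4, with 2 deleted libraries and 1 control, the log2 difference was -4.37 for Lyz1 and -1.84 for Lyz2. Within L5, with 1 deleted library and 3 controls, it was -1.86 for Lyz1 and -1.09 for Lyz2. Since every deleted library lay below every control for both lysozymes, both had to be lower within each code, which adds nothing to the comparison. Adgre1 (-0.41 and 0.94) and Maf (-0.45 and 0.46) differed in sign between L4 and L5, a difference that was not tested. Csf2rb was positive in both (0.85 and 0.35).

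Markers of other cells were low beside the macrophage genes, but several lists differed between the groups. The summed CPM of 6 B cell markers was 112 to 152 in the deleted and 35.1 to 71.4 in the control libraries, almost all from Ighm and Cd79b, with Pax5, a B cell transcription factor, at 0 to 0.0508 CPM. That of 9 neutrophil markers was 157 to 234 against 63.4 to 139, with Mmp8 the largest part and Ly6g at 0 to 0.102 CPM. The 8 T and NK cell markers summed to 7.42 to 12.6 against 1.93 to 6.41, and the 5 endothelial markers to 39.5 to 72.1 against 3.68 to 16.9, mostly from Pecam1. Positive log2 fold changes were found for 3 of 3 tested B cell markers, 6 of 6 neutrophil, 6 of 7 T and NK cell and 3 of 3 endothelial markers. The median over all tested genes was 0.03. In these lists DESeq2 called Ighm (adjusted p = 0.0116), Cd79b (0.0189), Mmp8 (0.0073), Nkg7 (0.0429) and Pecam1 (3.13e-05) higher, against 0.777% of all genes. EdgeR called none of them, with adjusted p from 0.111 to 0.297. The B cell marker Cd79a, too low to be tested in edgeR, was lower, at a mean of 0.0419 against 0.201 CPM. The dendritic cell, mast cell and eosinophil, fibroblast and epithelial sums overlapped between groups. Of the 6 tested dendritic cell markers, 3 had positive and 3 negative log2 fold changes. Among the negative ones, Flt3 (-1.64 ± 1.73) and Zbtb46 (-0.93 ± 0.67, SE) passed in neither tool. Within the dendritic cell list, 2 of 6 tested markers were higher in DESeq2, Xcr1 (2.64 to 5.51 against 0.474 to 1.504 CPM; adjusted p = 0.000785) and Batf3 (1.83 to 4.73 against 0.545 to 1.31 CPM; 0.0201). Ccr7, of migrating dendritic cells, was lower in DESeq2 (0.427 to 1.47 against 1.62 to 25.2 CPM; 0.00917), as was the epithelial keratin Krt7 (0 to 0.203 against 0.359 to 1.43 CPM; 0.0471). None of these 4 passed in edgeR, with adjusted p of 0.156 for Xcr1, 0.254 for Batf3, 0.345 for Ccr7 and 0.414 for Krt7. Control replicate 3 stood at 25.2 CPM for Ccr7, against 8.01, 1.62 and 2.37 CPM in the other controls. Thus the B cell, neutrophil, T and NK cell and endothelial sums moved opposite to the lysozymes, and Ccr7 and Krt7 moved with them. The part of these cells in the results was not tested. In sorted bulk RNA, fewer cells that express a gene and less RNA per cell cannot be told apart.

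For each of the 9 genes, the genes with the most similar pattern over the 7 libraries were sought among 10317 genes with a mean of at least 5 CPM, by Pearson r of log2 CPM. With 7 libraries and so many genes, high values arise readily, and they are given as a description. Lyz1 was most like Mettl26 (r = 0.992, Spearman rho = 1.0) and Tdrkh (0.986, 0.893), and Lyz2 most like Ctla2a (0.984, 0.964) and Sptssa (0.983, 0.964). Neither lysozyme was among the closest pair of the other. Csf1r was nearest to Pign (0.982, 0.821) and Cog4 (0.979, 0.964), Adgre1 to Lmbrd2 (0.984, 0.964) and Zfp180 (0.982, 1.0), and Cd68 to Gm17228 (0.987, 0.964) and Plbd2 (0.985, 1.0). Among the factors, Spi1 was nearest to Gm11965 (0.996, 1.0) and Ppig (0.994, 1.0), Cebpa to Rtf1 (0.968, 0.929) and Lsm14a (0.966, 0.929), and Maf to Stab1 (0.990, 1.0) and Hfe (0.928, 0.964). Csf2rb was nearest to Mknk2 (0.986, 0.964) and Gpc1 (0.986, 0.964).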

How the data were processed

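RNA was measured in 7 libraries of sorted tumor macrophages. Per the labels, the input was 2 ng of RNA with an integrity number above 7, amplified with the SMARTer kit and turned into Nextera XT libraries from 1 ng of cDNA. Bowtie2 placed the reads, per the submitters' processing notes; its version is not given in the sources used here, nor are the genome build, the annotation and the counter. The deposited files give counts of uniquely placed reads per gene. They also hold expected counts made by the authors, which add fractional shares of multiply placed reads. The authors' RPKM values, used here for the order of levels, divide by a length that was constant between libraries to 0.12% (median) when the total was taken as all placed reads. The 31124 gene values not listed in a library were set to 0. Ensembl identifiers were matched to symbols in 21813 cases.

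Unique counts were compared in edgeR 4.0.16 (R 4.3.3; filterByExpr, TMM, quasi-likelihood F test) with Benjamini-Hochberg adjustment at 0.05 over all 16226 tested genes, and in DESeq2 1.42.0. Fold changes are Dicer1-deleted minus control. The common dispersion of 0.203, a coefficient of variation of 45.1%, limits the precision more than depth. PCR without molecular identifiers means that reads are not independent molecules. Data were simulated for this comparison with 200 of 16226 genes changed. There edgeR recovered 1 of 50 genes at 2-fold and 40 of 50 at 4-fold with 5.41% false calls, and DESeq2 7 and 49 with 22.5% false calls. The simulation drew each gene independently, without the length trends of the real libraries. Its rates may therefore not hold for these data. The Lyz1 share and the sum of Csf2rb and Csf2rb2 were tested by exact permutation, unadjusted. The 9 genes and the related lists were chosen with earlier results of these data known. Named from the lists were calls of either tool and the most abundant gene of each list; other genes were named after their values were seen. Similar patterns used log2 of CPM plus 1.

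Alternatives were RLE factors, no scaling factors, scaling without the 20 most abundant genes, no filter, 10 CPM in 3 libraries, limma-voom (limma 3.58.1), the L code as covariate, multiply placed reads and leaving out each library. DESeq2 with each library left out and a transcript length offset were added after seeing the data.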

Additional observations from a re-analysis of the deposited data

Results flagged for a closer look

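Csf1r in the control libraries was marked by a sample far from the others. Control replicate 3 was at 809 CPM, against 553 to 581 CPM in the other 3 controls, a gap of 0.889 of the whole range, above Dixon's 95% critical value for 4 samples. It was the only mark among 16 groups of values tested, and chance marks about 1 in 20. Without control replicate 3 the log2 fold change of Csf1r was 0.22 in edgeR and did not pass.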

How the results depend on the processing

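Lyz1, Lyz2, Maf and Csf2rb kept their direction in all 24 alternatives. For Lyz1 and Lyz2, whose groups do not overlap, leaving out a library could hardly change it. Lyz1 ranged from -3.19 to -2.14 and Lyz2 from -1.45 to -0.98 (edgeR with 1 library left out, -1.43 to -0.98). DESeq2 gave -2.74 for Lyz1 and -1.26 for Lyz2, both past the threshold, and with 1 library left out -3.18 to -2.14 and -1.42 to -0.98. With 1 library left out, the summed lysozymes ranged from -3.08 to -2.06 and the Lyz1 share from -14.34 to -2.34 points, where the exact test cannot pass. Csf1r, Adgre1, Cd68, Spi1 and Cebpa, all uncalled, changed sign with a library left out: edgeR gave -0.06 to 0.25 for Csf1r, -0.32 to 0.62 for Adgre1, -0.60 to 0.13 for Cd68, -0.09 to 0.59 for Spi1 and -0.53 to 0.02 for Cebpa, and DESeq2 gave -0.04 to 0.26, -0.30 to 0.63, -0.59 to 0.17, -0.08 to 0.63 and -0.53 to 0.06. In limma-voom Adgre1 was at -0.00. The genes called numbered 4 in edgeR, 397 in DESeq2, 2 in limma-voom, 42 without a filter, 1 at 10 CPM in 3 libraries, 0 with the L code and 16 with the length offset. With 1 library left out edgeR called 0 to 3 and DESeq2 231 to 400; the cause was not tested. No scaling moved the median of all genes by over 0.1. Irf8, Pparg and Spic were positive and Dicer1 negative in all 24 alternatives. Their groups do not overlap either, so leaving out a library could hardly change these directions. No paired analysis was possible because the labels give no shared animals or numbers that pair the libraries, and the numbers used here only name them.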
